A study of Mus musculus with 8 samples.

Results

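Glycolysis and the response to low oxygen were examined through 40 genes, listed by what their products do. The choice was made with earlier results of these data known, so shares of the list set against all genes are a description. The genes were found by symbol in the deposited gene count table of the series, which holds 55335 rows. The list holds 17 glycolytic enzymes, 3 regulators of glycolytic flux, 5 oxygen-sensing genes and 15 genes known to respond to hypoxia. The 40 symbols matched 41 rows, because *Aldoa* has a main row and a second row for an upstream gene model with 35 counts in all. A total of 39 rows passed the filter on low counts, out of 15378 in the whole table, and the upstream *Aldoa* model and *P4ha2* (129 counts in all) did not.

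RNA was sequenced from activated CD8+ T cells that carry the PD-1 receptor, sorted from the tumor-infiltrating lymphocytes (TILs) of MC38 tumors by CD45.2, TCRβ, CD8, CD44 and PD-1. MC38, a colon carcinoma line of the mouse, was implanted under the skin of C57BL/6 animals. The 4 wildtype (WT) samples came from Lsd1f/f mice and the 4 LSD1-deficient (KO) samples from Cd4-Cre+Lsd1f/f mice, all 6 to 10 weeks old. LSD1, encoded by *Kdm1a*, removes methyl groups from histone H3. Both groups carry the floxed allele, and Cd4-Cre deletes it in developing T cells, so that CD4+ as well as CD8+ αβ T cells of the KO mice lose the gene. WT samples pooled 2 mice each and KO samples came from 1 mouse each, so pooling and genotype cannot be told apart. Tumors were taken at day 18 by the sample protocol and at 14 days by the design text of the series. WT samples are called S1 to S4, KO samples S5 to S8.

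Glycolysis splits glucose into pyruvate in the cytosol, and lactate dehydrogenase turns pyruvate into lactate. Activated T cells rely on this route strongly. In the presence of oxygen, prolyl hydroxylases of the EGLN family mark the α subunits of the hypoxia-inducible factors (HIF-1α, encoded by *Hif1a*, and HIF-2α, encoded by *Epas1*), and the ubiquitin ligase component VHL then sends them to degradation. When oxygen is low, the α subunits persist and bind DNA at the core letters ACGTG or GCGTG next to genes for glycolytic enzymes, glucose transporters, blood vessel growth and mitochondrial turnover. Several of these targets, *Egln3* among them, feed back on the pathway.

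The 250 bases upstream of the RefSeq transcript start (build GRCm38.p6) were searched for ACGTG and GCGTG on both strands. One window per gene was used, the one nearest to the GENCODE gene start, and 35 of the 40 genes had one. *Epas1*, *Bnip3l*, *Ero1l*, *Ndrg1* and *Bhlhe40* had none in the reference table. At least 1 of the cores lay in 25 of the 35 windows (71.4%), against 56.6% of the 9717 windows of tested genes and 38.6% of all 32851 windows. Sequences are shown for the 2 genes past the stricter call of the comparison below that have a window, and for an enzyme gene that was lower and a flux regulator that was higher in KO. Capitals mark the cores on either strand, and a palindromic CACGTG was counted once on each strand, which gives the *Ldha* window 5 matches. No window of the list held more, and *Bnip3* also had 5. Of the other enzyme genes lower in KO by the test below, *Aldoa* and *Tpi1* had 0, *Aldoc* and *Eno1* 1 each, and *Gapdh* 2. The *Ldha* window lies inside the GENCODE gene model, 4329 bases from its outer end. A match is a description of these letters and says nothing of binding.
Egln3, chr12:54203875-54204124, minus strand: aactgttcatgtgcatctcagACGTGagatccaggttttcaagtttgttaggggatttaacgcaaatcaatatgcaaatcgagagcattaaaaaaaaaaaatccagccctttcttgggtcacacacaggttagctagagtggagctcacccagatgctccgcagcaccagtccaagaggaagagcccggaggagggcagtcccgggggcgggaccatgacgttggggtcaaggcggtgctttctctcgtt
Ddit4, chr10:59951771-59952020, minus strand: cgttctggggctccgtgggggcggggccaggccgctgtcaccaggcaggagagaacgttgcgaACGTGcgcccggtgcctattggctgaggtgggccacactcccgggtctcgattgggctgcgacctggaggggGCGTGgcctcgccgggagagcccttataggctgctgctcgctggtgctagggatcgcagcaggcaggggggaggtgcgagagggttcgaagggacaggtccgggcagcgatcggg
Ldha, chr7:46845554-46845803, plus strand: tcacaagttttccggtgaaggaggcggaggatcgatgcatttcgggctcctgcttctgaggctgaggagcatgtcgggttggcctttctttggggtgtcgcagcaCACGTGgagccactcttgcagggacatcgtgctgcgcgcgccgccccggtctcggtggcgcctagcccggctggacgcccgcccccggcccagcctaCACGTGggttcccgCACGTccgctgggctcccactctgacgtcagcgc
Pfkfb3, chr2:11553930-11554179, minus strand: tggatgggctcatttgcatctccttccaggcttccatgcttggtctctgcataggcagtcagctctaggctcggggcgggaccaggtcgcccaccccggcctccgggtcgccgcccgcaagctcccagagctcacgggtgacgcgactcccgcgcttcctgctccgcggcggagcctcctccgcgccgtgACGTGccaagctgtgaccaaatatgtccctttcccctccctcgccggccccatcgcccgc

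Total counts per sample lay between 11657807 and 30295406, and 3 counts correspond to 0.106 to 0.25 CPM (read counts scaled to a common library size, here with TMM factors), which covers counting error only. *Kdm1a*, the deleted gene, had 44.9 ± 1.87 CPM in WT and 30.6 ± 4.03 in KO (SD, n = 4 each), with no overlap (exact two-sided permutation test, p = 0.0286, the smallest that 4 against 4 samples allow). Of the 15 myeloid marker genes, 14 were tested and 11 were lower in KO by the stricter call given below. Their summed level was 303 to 861 CPM in WT, highest in S3, and 61.3 to 104 CPM in KO. Among them *Ms4a7* was at 0 in 1 KO sample and *Mrc1* in 2. CD4 T cell markers (4 genes) summed to 40.1 to 57.0 CPM in WT and 121 to 155 CPM in KO. Most of it was *Zbtb7b*, at 34.5 to 49.9 CPM in WT and 92.9 to 108 CPM in KO. By edgeR's test below, *Cd4* and *Cd40lg* also rose (adjusted p = 0.0161 and 0.000126), and *Foxp3* did not pass (0.37). The 8 CD8 T cell markers overlapped in sum at 3113 to 4127 CPM. Of these 8, *Cd44* rose (log2 fold change 0.86, adjusted p = 0.000107), *Cd8b1* fell (-0.39, adjusted p = 0.0158) and 6 had a log2 fold change below 0. The stromal and endothelial list of 6 genes ran from 21.4 to 31.3 CPM in WT and 58.0 to 78.6 CPM in KO, through *Pecam1*, while *Cdh5* was at most 0.246 CPM and *Pdgfrb* at 0 in every sample. Epithelial and tumor cell markers (7 genes) overlapped at 13.5 to 32.7 CPM, nearly all of it *Cdh1*, and *Krt8*, *Krt19* and *Cdx2* were at 0 in every sample. B cell and NK cell markers (4 genes each) overlapped in sum, at 1.71 to 4.66 and 28.9 to 53.9 CPM. Nearly all of the NK sum was *Klre1* (log2 fold change -0.35, adjusted p = 0.186). The NK marker *Klrb1c* rose, at 0 to 1.32 CPM in WT and 2.15 to 5.51 CPM in KO (3.12, adjusted p = 0.0338). In RNA of a sorted pool, fewer cells of a type and less RNA per cell cannot be told apart.

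The comparison of KO with WT asked which of these genes differ between the TILs of KO and WT mice. The study reported slower MC38 growth in such KO mice. Among their CD8+ TILs it found a larger share of cells with the transcription factor TCF1 and intermediate PD-1. The share of cells with high PD-1 and no TCF1 was smaller. Tumor growth and this mix of cells cannot be told apart from genotype here, and their part was not tested. Most of the listed genes were lower in KO. The log2 fold change (KO over WT) was below 0 for 30 of the 39 tested genes and above 0 for 9, with a median of -0.34, against -0.01 over all 15378 genes, of which 51.4% were below 0. At an adjusted p under 0.05 (edgeR's quasi-likelihood test, Benjamini-Hochberg adjustment over all genes), 13 of the 39 fell (33.3%), against 4.98% of all genes, and 3 rose, against 6.31%. With 1 sample left out, 6 to 11 fell (6 without S4 or S6, 7 without S2 or S7) and 1 to 3 rose (1 without S2, S3, S4, S5 or S6). The 16 genes are 41.0% of the 39, against 11.3% of all genes in either direction. A stricter call required an adjusted p under 0.01 together with a change of over 1.5-fold. *Epas1* and *Ddit4* fell by this call (1.99% of all genes fell) and *Egln3* rose (2.91% of all genes rose), 3 of 39 where 4.9% of all genes passed in either direction. The 4 KO samples lay wholly below the 4 WT samples in 16 of the 39 (8.28% of all genes) and wholly above in 2 (8.99% of all genes), where 17.3% of all genes were separated in either direction. For each of these 18, the exact permutation test gives its smallest p of 0.0286, before any adjustment. The p-values set a difference against the spread between these samples, which are pools of 2 mice in WT and 1 mouse each in KO.

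**Figure D1:**
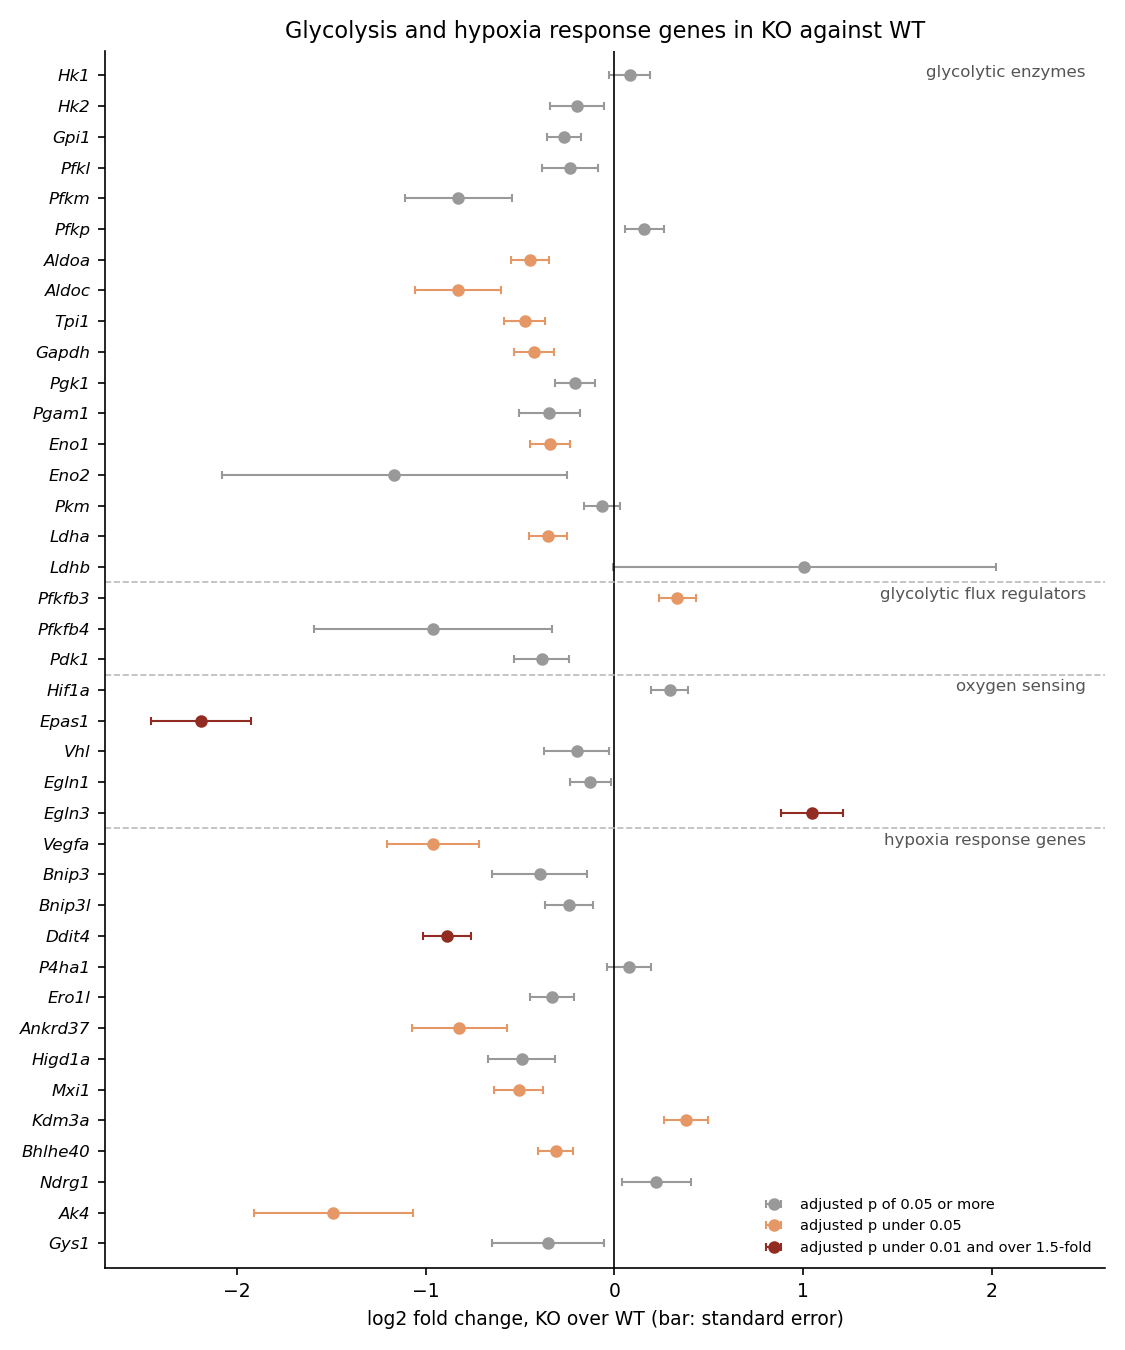
Log2 fold changes of KO over WT (x axis, unitless) for the 39 tested genes, in order of their roles. Points are estimates of edgeR's fit, bars are standard errors, and colors give the adjusted p. *Epas1* lies farthest to the left at -2.19 and *Egln3* farthest to the right among called genes at 1.05.

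The oxygen-sensing genes split. *Epas1* (ENSMUSG00000024140.10, GRCm38 chromosome 17 from 86753700 to 86833410, plus strand) encodes HIF-2α and was at 76.1, 42.4, 44.5 and 47.3 CPM in S1 to S4. It was at 18.4, 12.1, 7.76 and 7.91 CPM in S5 to S8. The highest KO sample was below the lowest WT sample, and S1 stood above the other WT samples. *Epas1* fell 4.57-fold (log2 fold change -2.19, SE 0.26, adjusted p = 3.39e-05). Myeloid markers were also lower in KO, and their part in the *Epas1* difference was not tested. Without S3, the WT sample with the highest marker sum, the log2 fold change of *Epas1* was -2.26 (adjusted p = 0.000104). This fit does not remove the group difference in markers. S1, S2 and S4 still held 303 to 400 CPM of them, against 61.3 to 104 CPM in KO.

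*Egln3* (ENSMUSG00000035105.5, chromosome 12 from 54178981 to 54203860, minus strand) encodes the prolyl hydroxylase PHD3. It was at 16.2, 18.7, 16.9 and 17.3 CPM in the 4 WT samples, S1 to S4, against 32.2, 36.5, 30.1 and 44.0 CPM in S5 to S8. The WT samples were close together and every KO sample was above all of them. *Egln3* rose 2.07-fold (log2 fold change 1.05, SE 0.16, adjusted p = 0.000427). The other prolyl hydroxylase gene listed, *Egln1*, overlapped between groups at 120 ± 15.9 CPM (SD, n = 4) in WT and 110 ± 7.78 in KO, with a log2 fold change of -0.13 (SE 0.11, adjusted p = 0.533). *Vhl* overlapped as well, at 32.3 ± 5.10 and 28.1 ± 5.19 CPM (log2 fold change -0.20, SE 0.17, adjusted p = 0.533).

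*Hif1a* was the most abundant oxygen-sensing gene per exon length, at 127 RPKM (CPM per kb of exons) in WT and 155 RPKM in KO, against 9.40 and 2.07 RPKM for *Epas1*. In CPM, *Hif1a* was at 755, 740, 716 and 779 in the WT samples S1 to S4, against 959, 980, 982 and 745 in the KO samples S5 to S8. S5, S6 and S7 were above every WT sample and S8 lay within the WT range. The difference missed the threshold (log2 fold change 0.29, SE 0.10, adjusted p = 0.063). Without S8 it was 0.38 with an adjusted p of 0.00786, and with any other sample left out the adjusted p stayed above 0.05. Of the 10 alternative fits with all samples, 2 passed 0.05 (adjusted p from 0.022 to 0.137).

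**Figure D2:**
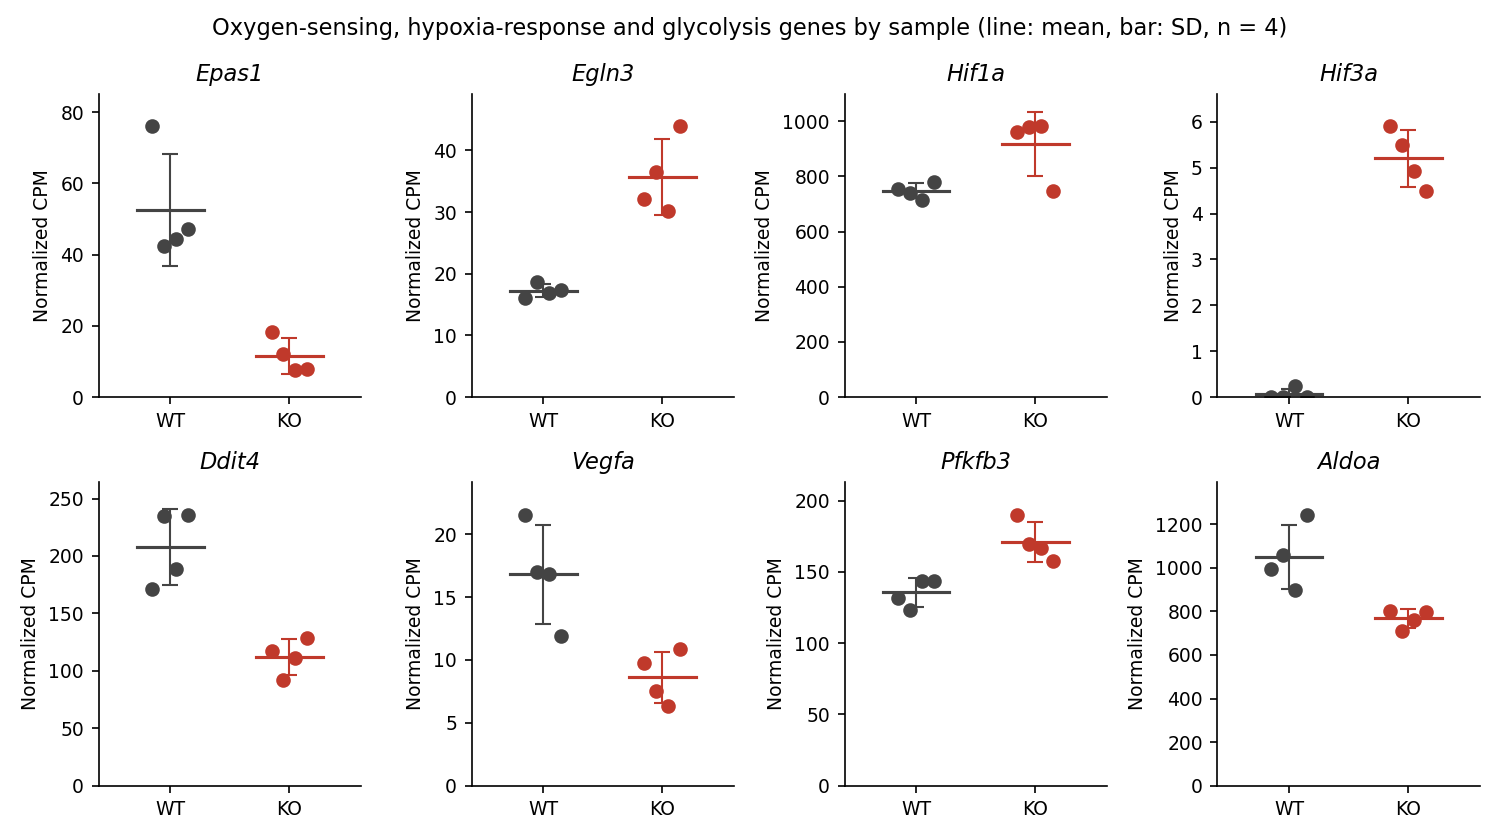
Normalized CPM (y axis, from 0) of 8 genes in each WT and KO sample. Points are samples, lines are means and bars are SD (n = 4 per group). The groups do not overlap for any gene shown except *Hif1a*, where S8 at 745 CPM lies among the WT samples.

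Of the 17 glycolytic enzyme genes, 6 fell at an adjusted p under 0.05 (*Aldoa*, *Aldoc*, *Tpi1*, *Gapdh*, *Eno1* and *Ldha*), against 4.98% of all genes. None of the 17 rose, and none passed the stricter call. Their log2 fold change was below 0 in 14 of 17, with a median of -0.34. Together they took 0.499% to 0.653% of all counts in WT and 0.433% to 0.47% in KO, with no overlap. In normalized counts the sum was 5413 ± 610 CPM in WT and 4514 ± 258 in KO (SD, n = 4 each), 16.6% lower. The filter left out no enzyme gene except the upstream *Aldoa* model. S4 held the highest WT value in 12 of the 17, and without S4 only *Aldoa* and *Tpi1* of the 17 passed an adjusted p of 0.05, with a median of -0.23. S3, the sample with the most myeloid marker RNA, held the lowest WT value in 9 of the 17. Every WT sample held more myeloid marker RNA than any KO sample, and its part in the enzyme difference was not tested.

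No gene of the first steps passed the test. The hexokinases, which trap glucose in the cell, both overlapped between groups. *Hk1* was at 125 to 169 CPM in WT and 152 to 173 in KO (log2 fold change 0.08, SE 0.11), and *Hk2*, the inducible form, at 68.2 to 104 and 60.5 to 85.4 CPM (-0.20, SE 0.14). Per exon length, *Hk1* made up 55.1% ± 1.28 (SD, n = 4) of the pair in WT and 59.9% ± 3.41 in KO, with overlap. *Gpi1*, which turns glucose-6-phosphate into fructose-6-phosphate, was at 384 to 447 CPM in WT and 317 to 366 CPM in KO. Its groups did not overlap, yet it missed the threshold (log2 fold change -0.27, SE 0.09, adjusted p = 0.0693).

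Phosphofructokinase, the committed step, is encoded by 3 genes. The platelet form *Pfkp* was the main one per exon length. It was at 401 to 497 CPM in WT and 439 to 567 in KO (log2 fold change 0.16, SE 0.10, adjusted p = 0.383). The liver form *Pfkl* was at 103 to 140 and 77.5 to 127 CPM (log2 fold change -0.23, SE 0.15, adjusted p = 0.363). The muscle form *Pfkm* was at 8.78 to 15.4 and 4.53 to 9.01 CPM (log2 fold change -0.83, SE 0.28, adjusted p = 0.0711). None of the 3 passed the test, and all 3 overlapped between groups. As a share of the family per exon length, *Pfkp* took 61.1%, 58.1%, 64.0% and 58.0% in S1 to S4, against 65.2%, 68.2%, 70.3% and 68.2% in S5 to S8. Every KO sample had a larger *Pfkp* share than every WT sample. *Pfkl* went from 33.3% ± 2.81 to 28.4% ± 3.01 and *Pfkm* from 6.41% ± 1.91 to 3.66% ± 1.36, both with overlap. *Senp1*, on the opposite strand, shares 18 exon bases with *Pfkm* and holds 1013% as many counts, and whether the counting used strand is not given in the sources used here.

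*Aldoa*, the main aldolase, which cleaves fructose-1,6-bisphosphate, had the highest level per exon length of all 17 enzyme genes, at 360 RPKM in WT and 264 RPKM in KO. It was at 993, 1058, 897 and 1244 CPM in the 4 WT samples, S1 to S4, against 803, 711, 759 and 798 CPM in S5 to S8. The lowest WT sample, S3, was above the highest KO sample. *Aldoa* fell by 26.7% (log2 fold change -0.45, SE 0.10, adjusted p = 0.00758), and it passed an adjusted p of 0.05 with each sample left out. Its partner *Aldoc* was at 19.2, 22.5, 23.9 and 25.6 CPM in WT and at 18.8, 8.89, 9.68 and 13.7 CPM in KO. The groups were separated by a narrow gap, between S1 and S5. *Aldoc* fell (log2 fold change -0.83, SE 0.23, adjusted p = 0.0263), a call lost without S2, S3, S4, S6 or S7 (adjusted p up to 0.0835). *Aldoa* made up 98.1% of the pair in WT and 98.6% in KO per exon length.

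*Tpi1* (triosephosphate isomerase) interconverts the triose phosphates and was at 391, 408, 392.2 and 515 CPM in the 4 WT samples, S1 to S4, against 340, 283, 281 and 323 CPM in S5 to S8. S4 stood well above the other WT samples, and the KO samples all lay under the WT range. *Tpi1* fell by 28% (log2 fold change -0.47, SE 0.11, adjusted p = 0.00832) and passed with each sample left out, with a log2 fold change of -0.37 without S4. *Gapdh*, the next enzyme and a common reference gene, was at 530, 634, 580 and 767 CPM in WT and at 479, 484, 445 and 460 CPM in KO. The KO samples were close together and below all WT samples. *Gapdh* fell by 25.6% (log2 fold change -0.43, SE 0.11, adjusted p = 0.0147), and without S4 the change was -0.32 with an adjusted p of 0.0526.

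The next pair of enzymes did not pass the test. *Pgk1* (phosphoglycerate kinase) overlapped at 125 to 166 and 111 to 129 CPM (log2 fold change -0.21, SE 0.11, adjusted p = 0.25). *Pgam1* (phosphoglycerate mutase) overlapped at 30.6 to 45.3 and 23.8 to 32.1 CPM (log2 fold change -0.34, SE 0.16, adjusted p = 0.199). *Eno1* (enolase 1) was at 532, 550, 512 and 659 CPM in the 4 WT samples, S1 to S4, against 503, 425, 391 and 457 CPM in S5 to S8. Its groups were separated narrowly, between S3 and S5. *Eno1* fell by 21.1% (log2 fold change -0.34, SE 0.10, adjusted p = 0.0439), and the call was lost when S2, S4, S6, S7 or S8 was left out (adjusted p up to 0.154). The neuronal form *Eno2* was near the limit of detection, at 1.63 to 1.74 CPM in WT and 0 to 1.62 CPM in KO (log2 fold change -1.17, SE 0.91, adjusted p = 0.486), and made up at most 0.433% of the pair in any sample.

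*Pkm* (pyruvate kinase), which makes pyruvate, overlapped, with 857 ± 106 CPM in WT and 818 ± 40.9 in KO (SD, n = 4 each) (log2 fold change -0.07, SE 0.10, adjusted p = 0.74). *Ldha*, the lactate dehydrogenase subunit that favors lactate, was at 423, 488, 394 and 537 CPM in the 4 WT samples, S1 to S4, against 365, 358, 356 and 366 CPM in S5 to S8. The KO samples were nearly equal and all below WT. *Ldha* fell by 21.5% (log2 fold change -0.35, SE 0.10, adjusted p = 0.0331), and the call was lost in 6 of the 8 fits without 1 sample (adjusted p up to 0.12, without S4). *Ldhb* had 0.0835 to 3.07 CPM across all samples and at most 1.78% of the pair per exon length, so its log2 fold change of 1.01 (SE 1.02) rests on few counts. Near-identical copies can take reads of some enzyme genes. With the counts of *Eno1b*, *Ldha-ps2*, *Pgk1-rs7* and the overlapping *Gm49759* added to *Eno1*, *Ldha*, *Pgk1* and *Pkm*, the log2 fold changes were -0.33, -0.36, -0.22 and -0.10, a fit chosen after seeing the data.

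**Figure D3:**
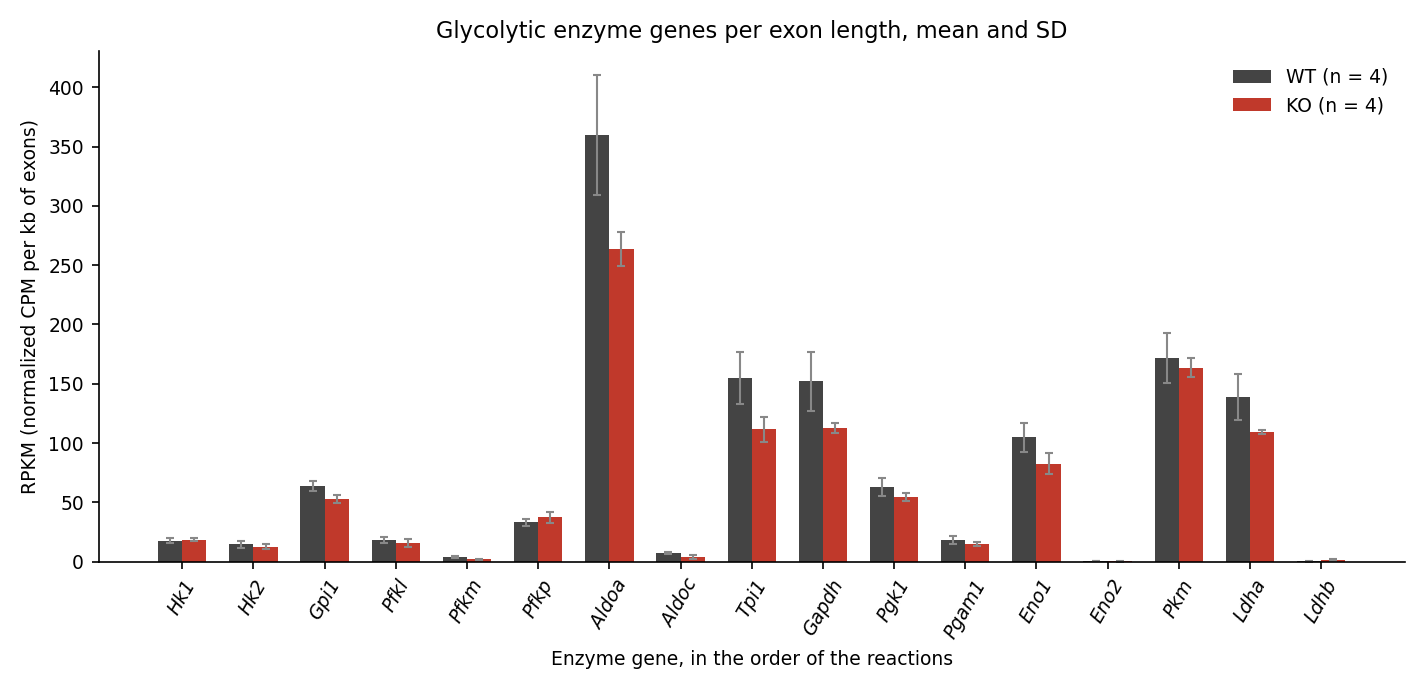
Level of the 17 glycolytic enzyme genes per exon length (y axis, RPKM from 0), in the order of the reactions. Bars are means and whiskers SD (n = 4 per group). *Aldoa* has the tallest bars, 360 RPKM in WT and 264 RPKM in KO, and *Eno2* and *Ldhb* lie near 0.

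Of the flux regulators, 1 gene rose. *Pfkfb3*, whose product makes fructose-2,6-bisphosphate and so activates phosphofructokinase, was at 132, 123, 144 and 144 CPM in S1 to S4. It was at 190, 170, 166 and 157 CPM in S5 to S8. The lowest KO sample, S8, was above the highest WT samples, opposite in direction to the enzymes that fell. *Pfkfb3* rose by 26.1% (log2 fold change 0.33, SE 0.10, adjusted p = 0.0382), a call lost in 7 of the 8 fits without 1 sample (adjusted p up to 0.135). *Pfkfb4*, a related enzyme, overlapped at 1.45 to 9.55 and 0.584 to 4.20 CPM (log2 fold change -0.96, SE 0.63, adjusted p = 0.385). *Pfkfb3* made up 95.4% ± 3.30 of the pair in WT and 98.1% ± 1.26 in KO (SD, n = 4). *Pdk1*, a kinase that inhibits pyruvate dehydrogenase, was at 57.6 to 70.7 CPM in WT and 40.1 to 63.9 in KO. It overlapped through S8 and missed the threshold (log2 fold change -0.38, SE 0.15, adjusted p = 0.105), and without S8 it was -0.52 with an adjusted p of 0.0266.

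Among the hypoxia response genes, 14 of 15 were tested. At an adjusted p under 0.05, 6 fell, against 4.98% of all genes, and 1 rose, against 6.31%. *Ddit4* (ENSMUSG00000020108.4, chromosome 10 from 59949669 to 59951834, minus strand), which encodes the mTORC1 inhibitor REDD1, had the smallest adjusted p of the 14. It was at 171, 235, 188 and 236 CPM in the 4 WT samples, S1 to S4, against 117, 91.7, 111 and 128 CPM in S5 to S8. The highest KO sample, S8, was below the lowest WT sample, S1. *Ddit4* fell by 46.0% (log2 fold change -0.89, SE 0.13, adjusted p = 0.000182), and without S3, the sample with the most myeloid marker RNA, the change was -0.93 (adjusted p = 0.00051). The WT samples left still held more myeloid marker RNA than any KO sample. Its part in the *Ddit4* difference was not tested. *Epas1*, *Egln3* and *Ddit4* passed the stricter call in each of the 8 fits without 1 sample and in each of the other 10 alternative fits.

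*Vegfa*, the vascular growth factor, was at 21.6, 17, 16.8 and 11.9 CPM in the 4 WT samples, S1 to S4, against 9.72, 7.52, 6.34 and 10.8 CPM in S5 to S8. S1 was the highest WT sample, and the gap between S4 and S8 was narrow. *Vegfa* fell by 48.6% (log2 fold change -0.96, SE 0.24, adjusted p = 0.0161), and the call was lost without S1 (0.0568) or S7 (0.054) and held without S3 (0.0371). *Ankrd37*, an ankyrin repeat gene, was at 22.0, 13.4, 12.8 and 15.9 CPM in WT and at 8.80, 8.16, 6.68 and 12.4 CPM in KO. S3 and S8 nearly met. *Ankrd37* fell (log2 fold change -0.82, SE 0.25, adjusted p = 0.0429), a call lost in 6 of the 8 fits without 1 sample (adjusted p up to 0.141, without S1). Its exons share 57 bases with *Ufsp2* on the opposite strand, which holds 107% as many counts.

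*Ak4*, a mitochondrial adenylate kinase, was at 4.24, 4.96, 10.04 and 11.2 CPM in the 4 WT samples, S1 to S4, against 4.20, 2.18, 1.84 and 2.53 CPM in S5 to S8. S3 and S4 were high, S1 and S5 were almost equal. *Ak4* fell (log2 fold change -1.49, SE 0.42, adjusted p = 0.0293), but not without S3, S4, S6, S7 or S8 (adjusted p up to 0.128, without S4). Myeloid markers moved with *Vegfa*, *Ankrd37* and *Ak4* between the groups. Without S3 the log2 fold changes of these 3 genes were -0.96, -0.91 and -1.33 (adjusted p = 0.0371, 0.0441 and 0.0918). The WT samples left still held more myeloid marker RNA than any KO sample, at 303 to 400 against 61.3 to 104 CPM. The part of other cell types in these 3 genes was not tested.

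Regulators of transcription moved both ways. *Mxi1*, which encodes a MYC antagonist, was at 92.6, 82.4, 72.2 and 74.1 CPM in the 4 WT samples, S1 to S4, against 65.2, 52.6, 61.8 and 46.8 CPM in S5 to S8, with no overlap. *Mxi1* fell by 29.7% (log2 fold change -0.51, SE 0.13, adjusted p = 0.018) and lost the call without S1, S2, S6 or S8 (adjusted p up to 0.0571). *Bhlhe40*, the most abundant of the 15 per exon length and a transcription factor of activated T cells, was at 917, 1001, 776 and 863 CPM in S1 to S4. It was at 719, 680, 767 and 700 CPM in S5 to S8. The gap between S3 and S7 was small, and *Bhlhe40* fell by 19.4% (log2 fold change -0.31, SE 0.09, adjusted p = 0.0401), a call lost in 7 of the 8 fits without 1 sample (adjusted p up to 0.152). *Kdm3a*, which encodes a demethylase of histone H3 lysine 9, was at 176, 139, 160 and 148 CPM in WT and at 245, 196, 171 and 199 CPM in KO. S7 lay below S1, so the groups overlapped. *Kdm3a* rose by 30.0% (log2 fold change 0.38, SE 0.12, adjusted p = 0.0445), a call lost in 6 of the 8 fits without 1 sample (adjusted p up to 0.152).

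The remaining 7 tested hypoxia response genes did not pass an adjusted p of 0.05. *Ero1l*, an oxidoreductase of the endoplasmic reticulum, did not overlap, at 78.6 to 102 CPM in WT and 68.7 to 78.2 CPM in KO (log2 fold change -0.33, SE 0.12, adjusted p = 0.0779). *Higd1a*, a mitochondrial protein gene, overlapped at 21.7 to 30.0 and 15.3 to 23.2 CPM (log2 fold change -0.49, SE 0.18, adjusted p = 0.0919). The mitophagy receptor genes *Bnip3* and *Bnip3l* had log2 fold changes of -0.40 (SE 0.25) and -0.24 (SE 0.12). *P4ha1*, a collagen prolyl hydroxylase subunit, was at 87.4 ± 9.17 and 92.2 ± 10.7 CPM (SD, n = 4), and its log2 fold change was 0.08. *Ndrg1*, a differentiation-related gene, had a log2 fold change of 0.22 (SE 0.18), with S5 highest at 115 CPM. *Gys1* (glycogen synthase) had -0.35 (SE 0.29), and *Ruvbl2* on the opposite strand shares 310 exon bases with it and holds 259% as many counts. *P4ha2*, not tested, was at 0 to 4.47 CPM.

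**Figure D4:**
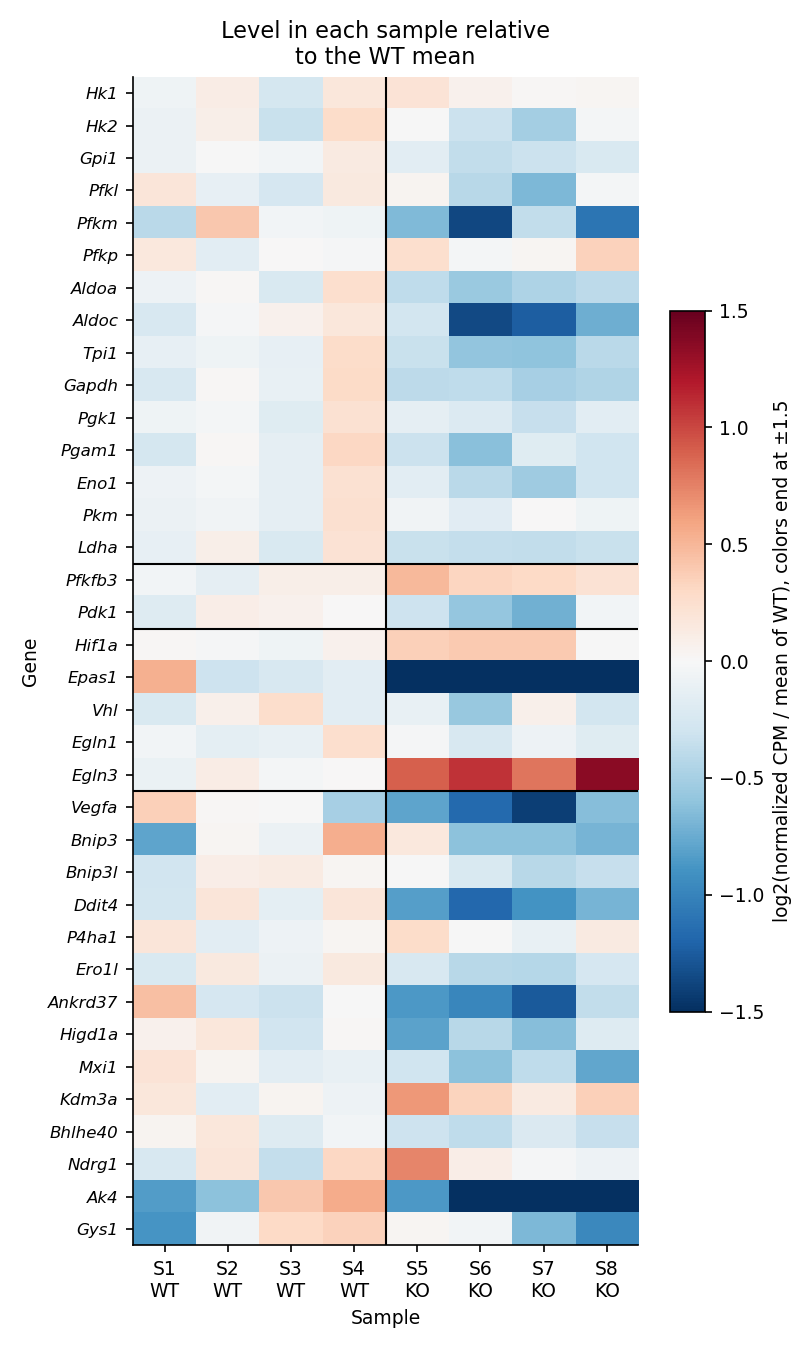
Level of each gene in each sample relative to the mean of the WT samples (color, log2, ends at ±1.5), for the 36 tested genes with over 500 counts in all. The left 4 columns are WT samples, the right 4 are KO samples, and black lines divide the roles. S4 is the reddest WT column among the enzymes. *Epas1* is blue and *Egln3* red in all 4 KO columns.

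Other genes of the same pathways were taken from lists by function, also chosen with earlier results of these data known. Of 34 further glycolysis genes, 27 were tested, and at an adjusted p under 0.05 2 rose (6.31% of all genes rose) and 4 fell (4.98% of all genes fell), with a median log2 fold change of -0.27. *Eno3*, the muscle enolase, was at 13.5, 14.1, 16.9 and 18.1 CPM in the 4 WT samples, S1 to S4, against 3.68, 4.61, 6.76 and 8.20 CPM in S5 to S8, with no overlap, and fell (log2 fold change -1.42, SE 0.27, adjusted p = 0.00228). It alone of this list passed the stricter call, which it missed without S4 (adjusted p = 0.0119). The glucose transporter gene *Slc2a1* fell (log2 fold change -0.43, SE 0.12, adjusted p = 0.0236), at 160 to 193 CPM in WT and 106 to 148 CPM in KO. It passed an adjusted p of 0.05 in 5 of the 8 fits without 1 sample (adjusted p up to 0.0937, without S2). Another glucose transporter gene, *Slc2a3*, was at 239 to 337 CPM in WT and 354 to 386 CPM in KO. Its groups did not overlap, yet it missed the threshold (log2 fold change 0.33, SE 0.11, adjusted p = 0.0728). The lactate exporter gene *Slc16a3* fell as well (-0.51, SE 0.15, adjusted p = 0.036), but passed in only 2 of the 8 fits without 1 sample (adjusted p up to 0.142, without S4). The related monocarboxylate transporter gene *Slc16a1* rose (0.43, SE 0.12, adjusted p = 0.0329) and passed in 3 of the 8 (adjusted p up to 0.107, without S3). *Tigar*, whose product lowers fructose-2,6-bisphosphate, rose (0.68, SE 0.17, adjusted p = 0.0154) and passed in all 8.

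Of 30 further hypoxia genes, 25 were tested, and at an adjusted p under 0.05 3 rose (6.31% of all genes rose) and 2 fell (4.98% of all genes fell), with a median log2 fold change of -0.25. *Hif3a*, the third HIF α subunit gene, had 0, 0, 0.245 and 0 CPM in S1 to S4, against 5.91, 5.50, 4.92 and 4.50 CPM in S5 to S8. It was read in every KO sample and in a single WT sample, S3. With 3 counts in all WT samples and 345 in KO, the ratio of KO to WT at equal depth was 101 (95% interval 34.4 to 494, counting error only), and the adjusted p was 0.000124. *Rora*, a nuclear receptor gene, rose at 196 to 255 CPM in WT against 335 to 404 CPM in KO (log2 fold change 0.75, SE 0.10, adjusted p = 0.000127). *Cited2*, whose product competes with HIF α subunits for the coactivator CBP/p300, rose with overlap (0.63, SE 0.17, adjusted p = 0.0266), and passed 0.05 in only 3 of the 8 fits without 1 sample (adjusted p up to 0.0995, without S7). *Hilpda*, a lipid droplet gene, fell (-0.87, SE 0.16, adjusted p = 0.00155), and so did the transferrin receptor gene *Tfrc* (-0.63, SE 0.12, adjusted p = 0.00199). *Hif3a*, *Rora* and *Hilpda* passed the stricter call in all 8 fits without 1 sample and *Tfrc* in 6 (adjusted p up to 0.0106).

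For comparison, nuclear genes of oxidative phosphorylation, the mitochondrial route of ATP production, were picked by symbol (starting Nduf, Uqcr, Cox4 to Cox8 or Atp5). This rule takes in assembly factor genes named Ndufaf and leaves out the Sdh genes. Of the 90 genes picked, 81 were tested. Their log2 fold change was below 0 in 63 (77.8%), near the 76.9% among the 39 glycolysis and hypoxia genes, but with a median of -0.17. None rose and 3 fell (3.7%) at an adjusted p under 0.05, against 13 of 39 here and 4.98% of all genes. The lists were set side by side as a description, and the difference between them was not tested.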

How the data were processed

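Per the submitters' notes, the authors mapped read pairs to GRCm38 (mm10) by STAR, and counted them on GENCODE genes by featureCounts. The deposited table holds raw counts per gene, neither normalized nor pooled, with 1 column per sample. Their DESeq2 test was not used here. The key of the study's PCA plot names the numbered columns as WT or KO and gives no replicate number. Whether counting used strand is not given in the sources used here. Coordinates and exon lengths came from GENCODE M21, which matched 55154 of 55335 gene IDs.

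All 8 columns were fitted with edgeR 4.0.16 in R 4.3.3 (filterByExpr, TMM, estimateDisp, glmQLFit, glmQLFTest, no covariates), with Benjamini-Hochberg adjustment over 15378 genes, and calls were made at a fold change above 1.5 and adjusted p under 0.01, or at adjusted p under 0.05. SE is the size of the log2 fold change divided by the square root of F. Exact two-sided permutation tests covered the 70 arrangements of 4 against 4, of log2 CPM (prior count 2). Scripts were tested on simulated data. The design text of the series gives reads of 75 bp, the methods 43 and 42 bp. From 10000 to 20000 cells were sorted per sample. Library totals of 11657807 to 30295406 counts limit precision at low counts.

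The genes and lists were chosen with earlier results of these data known. All genes of the list were named, with full statistics for those called and for isozyme partners. Of the other lists, the 10 called genes with the smallest adjusted p were named, and *Slc2a3* was added later beside *Slc2a1*. Between samples of one group, the median chi-square per gene was 4.93 to 8.47, and no samples were merged. Alternatives were other scaling, filters, DESeq2 1.42.0, the likelihood ratio test, GC content offsets (mgcv 1.9.3), protein-coding genes only, leaving out each sample and, added later, summing near-identical copies.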

Additional observations from a re-analysis of the deposited data

Results flagged for a closer look

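In 3 of 78 groups of 4 samples, 1 sample lay far from the other 3, by the gap to its nearest neighbor as a share of the range of the group (Dixon's test at its 95% critical value for 4 samples). Chance gives about 1 in 20 such groups, here 3.9.

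*Tpi1* in WT had a gap of 0.84 of the range, with S4 at 515 CPM and the other WT samples at 391 to 408 CPM. *Hif1a* in KO had a gap of 0.914, with S8 at 745 CPM and the other KO samples at 959 to 982 CPM. *Bnip3* in KO had a gap of 0.896, with S5 at 33.2 CPM and the other KO samples at 18.4 to 19.5 CPM.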

How the results depend on the processing

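Over 18 alternative fits of each of the 16 genes with an adjusted p under 0.05, the direction was kept in all 288, and 225 passed 0.05 while 63 missed it. *Epas1*, *Egln3*, *Ddit4*, *Aldoa* and *Tpi1* passed in all 18.

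At the stricter call, genes that fell numbered 306 over all genes. There were 531 with no filter on low counts, 481 by edgeR's likelihood ratio test, 461 by DESeq2 and 199 to 303 without 1 sample (199 without S2). Of the genes of the list, 2 fell, and 4, 5, 4 and 2 to 3 under the same settings, the additional ones being among *Aldoc*, *Vegfa* and *Ak4*. At an adjusted p under 0.05, 766 of all genes fell (480 to 785 without 1 sample, 480 without S2). Of the list 3 rose, with 1 under upper quartile scaling, 1 under library size alone and 1 to 3 without 1 sample (1 without S2, S3, S4, S5 or S6). Of the list 13 fell, with 6 to 11 without 1 sample (6 without S4 or S6, 7 without S2 or S7). With GC content offsets, 9 of the list fell and 2 rose, and the calls lost were *Eno1* (adjusted p = 0.063), *Ldha* (0.0526), *Ankrd37* (0.0522), *Bhlhe40* (0.0536) and *Kdm3a* (0.0563). The cause of these shifts was not tested. Without length scaling, the WT share of *Hk1* was 63.7% in place of 55.1%, of *Pfkl* 21.2% in place of 33.3% and of *Eno1* 99.70% in place of 99.66%. No paired analysis was possible because the columns carry no replicate numbers.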
